A study of Homo sapiens with 12 samples.

Results

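The step from 12 h to 24 h of TGFβ treatment was examined in A549 cells, a human lung adenocarcinoma line, by comparing every kept cell of the 24 h libraries with every kept cell of the 12 h libraries. Cells treated for 24 h (2 libraries, replicates 1 and 2) were set against cells treated for 12 h (2 libraries, replicates 1 and 2). The treatment was 4 ng/mL of TGFβ in the labels, and the whole series has 12 libraries, 2 per time, with 0, 0.5, 48 and 96 h as the other times. The labels name no transgene or deletion. All dishes were plated before TGFβ was added, and none of the samples is an untreated dish of 12 h or 24 h, so hours of TGFβ and hours in culture cannot be told apart. Single cells that excluded propidium iodide were sorted into plates of 384 wells, and the 3′ ends of their mRNAs were counted by unique molecular identifiers (UMIs) with CEL-Seq2. A well was kept if it had 2000 to 7000 genes with a UMI, 100 to 40000 UMIs in all and no more than 35% of them from mitochondrial genes. This left 201 and 189 cells in the 24 h libraries against 188 and 217 cells in the 12 h libraries, which are 795 of the 1871 kept cells of the series.

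TGFβ binds a pair of receptor kinases that phosphorylate SMAD2 and SMAD3, and these enter the nucleus with SMAD4 to switch on genes such as SNAI1 and SMAD7. In A549 cells prolonged exposure drives epithelial-to-mesenchymal transition, in which epithelial junction and keratin genes decline while vimentin, N-cadherin and matrix genes increase. The question for these libraries was how far the transcriptome moved between 12 h and 24 h, and for which genes a lack of movement could be shown.

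The UMIs of the kept cells were added up in each library, for protein-coding genes only. The sums were 4500036 and 2728859 UMIs at 24 h and 3969619 and 3669650 UMIs at 12 h. The median cell held 24805 and 15789 UMIs at 24 h and 23086 and 17850 UMIs at 12 h, so replicate 2 was the shallower library at both times. Median mitochondrial shares were 23.8% and 23.5% for 24 h against 24.3% and 23.1% for 12 h. The labels do not say that replicates were separate cultures, so the tests reflect only how far these libraries spread, which may be technical. Replicate 1 of every time carried barcode set 2 and replicate 2 carried barcode set 1, so replicate number and barcode set cannot be told apart. The 4 endothelial markers measured had 1 UMI in all 4 libraries together. The 3 immune markers summed to 1 and 3 UMIs at 24 h against 5 and 6 UMIs at 12 h, mostly from CD14, and PTPRC had 0. The 6 fibroblast markers summed to 159 and 95 UMIs at 24 h against 77 and 135 UMIs at 12 h, of which COL6A3, a type VI collagen chain, gave 157 and 87 UMIs at 24 h against 72 and 128 UMIs at 12 h, while DCN and PDGFRB had 0. The 6 genes that mark A549 cells, among them AKR1B10 and ALDH1A1, summed to 13590 and 13447 CPM (counts scaled to a common library size) at 24 h and to 13911 and 14594 CPM at 12 h. In sums over cells, fewer cells of a state and less RNA per cell cannot be told apart.

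No protein-coding gene passed the test between 24 h and 12 h in the fit without a replicate block. With one mean per time point fitted over all 12 libraries, edgeR's quasi-likelihood test called 0 of 10465 genes (0%) at a Benjamini-Hochberg adjusted p under 0.05, and the lowest adjusted p was 0.115. At an unadjusted p under 0.05 there were 572 genes (5.47%), of which 274 were higher (2.62%) and 298 lower (2.85%) at 24 h. DESeq2 called 2 genes. In the same edgeR model 46 genes passed at 0.5 h against 0 h, 548 at 48 h against 24 h and 127 at 96 h against 48 h. The median size of the log2 change was 0.18 for 24 h against 12 h, 0.13 for 0.5 h against 0 h and 0.26 for 48 h against 24 h.

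A missed threshold does not show likeness, so likeness was tested on its own. Each gene was tested in edgeR against a change of 2-fold up and of 2-fold down, and was called equivalent when both one-sided tests passed after adjustment over all genes. At this margin 7912 of 10465 genes (75.6%) were equivalent between 24 h and 12 h. Equivalence was shown more often for abundant genes. Among the 3064 genes that reached a mean of 50 CPM at either time, 2982 (97.3%) were equivalent, against 4930 of 7401 (66.6%) below that level. The median SE of a log2 change was 0.24 over all genes. It was 0.17 over the 2931 genes with a mean of 50 CPM or more across the 4 libraries. With a narrower margin of 1.5-fold, 2433 genes (23.2%) were equivalent. The 248 genes with a fitted change over 2-fold had a median of 2.32 CPM, and 5 of them reached 50 CPM, among them TP53I3, PRDX1 and PNP, which were higher at 24 h, and ELF3, which was lower.

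The time difference and the replicate difference were of like size. Over genes at 50 CPM or more in these libraries (2931 genes), the median size of the log2 ratio of 24 h to 12 h was 0.13 within barcode set 2 and 0.17 within barcode set 1. The same median for replicate 1 against replicate 2 was 0.18 at 24 h and 0.16 at 12 h. The ratio of 24 h to 12 h could be taken in each barcode set from libraries the other set does not use. Across the 3064 abundant genes these paired ratios had a Pearson's r of 0.63, and 70.9% of the genes had the same sign in both sets. Over all 10465 genes r was 0.25 and the same-sign share 60.9% (30.6% higher in both sets and 30.3% lower), and the points share library scaling and, between sets, differ in depth. The ratio of replicate 1 to replicate 2 at 24 h and at 12 h had an r of 0.66 over the same abundant genes.

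With the replicate number as a block, 21 genes passed (0.201% of those tested), 11 higher and 10 lower at 24 h, and 8081 genes (77.2%) were equivalent within 2-fold. All 21 had both 24 h libraries above both 12 h libraries or below them. They were selected by p in these same libraries, which makes such a separation likely. Of all tested genes, 18% lay above in this way and 18% below. All 21 also had an unadjusted p under 0.05 without the block, and with it 839 genes (8.02%) did. The adjusted p-values given beside the genes below come from edgeR's quasi-likelihood test with this block. Changes and SEs come from the fit without it, in which none of the 21 passed.

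**Figure D1:**
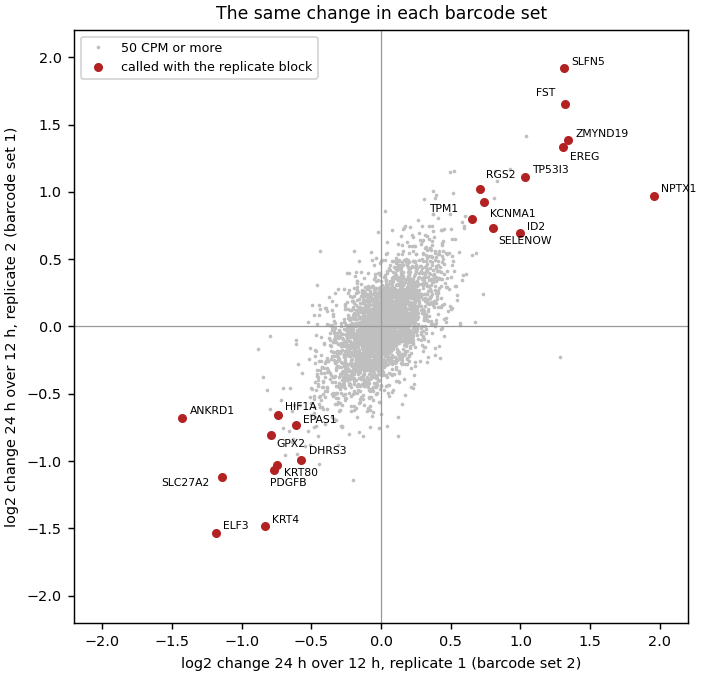
Log2 change from 12 h to 24 h in replicate 1 (barcode set 2, horizontal axis) and in replicate 2 (barcode set 1, vertical axis), 24 h over 12 h. Grey points are genes that reached a mean of 50 CPM at either time, red points the 21 genes that passed with the replicate block. The red genes were selected in these same libraries and all lie where both sets change the same way, upper right or lower left.

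An epithelial regulator and a pair of keratin genes were among the genes that fell with the block. ELF3, an epithelial ETS transcription factor, had 24.3 and 19.6 CPM at 24 h against 56.0 and 58.1 CPM at 12 h. The log2 change of −1.36 ± 0.26 (SE) was the largest decrease among abundant genes (adjusted p = 0.013), and it ran from −1.54 to −1.02 over 14 other ways of processing. ELF3 had 146 and 163 CPM at 0 h, 38.1 and 18.6 CPM at 48 h and 14.0 and 4.66 CPM at 96 h, so 1 library of 48 h was above both of 24 h and the other below both. KRT80, a keratin of epithelial filaments, had 188 and 111 CPM at 24 h against 315 and 227 CPM at 12 h (log2 change −0.85 ± 0.24, adjusted p = 0.021). Unlike ELF3, KRT80 was lower at 0 h than at 12 h, with 124 and 99.3 CPM at 0 h. KRT4, a keratin of stratified epithelium, had 14.5 and 9.26 CPM at 24 h against 26.2 and 27.1 CPM at 12 h (−1.12 ± 0.32, adjusted p = 0.035). For each of these genes both 24 h libraries were below both 12 h libraries.

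A pair of genes for oxygen-labile α subunits of hypoxia-inducible factors fell with the block. HIF1A had 187 and 183 CPM at 24 h against 313 and 290 CPM at 12 h (−0.70 ± 0.15, adjusted p = 0.018). EPAS1, which encodes HIF-2α, had 488 and 396 CPM at 24 h against 745 and 658 CPM at 12 h (−0.67 ± 0.17, adjusted p = 0.018). The groups did not overlap for either gene, yet both changes were also equivalent within 2-fold without the block, at adjusted p-values of 0.040 for HIF1A and 0.038 for EPAS1. Of 28 tested genes of hypoxia and glycolysis, HIF1A was the only one to pass with the block, and the list had a median of −0.12 with 22 members below 0. The glycolytic enzymes ENO1 (2932 and 2501 CPM at 24 h, 2929 and 2732 CPM at 12 h) and PKM (4495 and 3460 CPM at 24 h, 4525 and 3590 CPM at 12 h) were equivalent within 2-fold.

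The other genes that fell with the block have roles in lipid, retinoid and redox metabolism, growth factor signalling and the response to stretch. SLC27A2, a fatty acid transporter and acyl-CoA synthetase, had 15.1 and 17.0 CPM at 24 h against 34.1 and 37.8 CPM at 12 h (−1.17 ± 0.25, adjusted p = 0.018). DHRS3, a retinal reductase, had 145 and 120 CPM at 24 h against 216 and 240 CPM at 12 h (−0.77 ± 0.17). GPX2, a glutathione peroxidase under NRF2 control, had 103 and 95.2 CPM at 24 h against 179 and 167 CPM at 12 h (−0.80 ± 0.18). In each of these genes the libraries of the 2 times did not overlap. PDGFB, a platelet-derived growth factor chain and a SMAD target, had 66.7 and 49.3 CPM at 24 h against 114 and 104 CPM at 12 h (−0.90 ± 0.21), and it had 2.74 and 1.45 CPM at 0 h. ANKRD1, a YAP target of the ankyrin repeat family, had 23.4 and 21.1 CPM at 24 h against 63.9 and 34.1 CPM at 12 h (−1.13 ± 0.25, adjusted p = 0.046). ANKRD1 had the widest spread of these, since the 12 h libraries differed from each other more than those of 24 h, and its change was 0.44 under stricter limits on cells.

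FST and EREG, which encode secreted signalling proteins, rose with the block. FST, which encodes follistatin, an inhibitor of activins, had 29.6 and 41.1 CPM at 24 h against 11.5 and 12.6 CPM at 12 h (1.54 ± 0.28, adjusted p = 0.0021). EREG, which encodes the EGF receptor ligand epiregulin, had 16.1 and 18.2 CPM at 24 h against 6.11 and 6.83 CPM at 12 h (1.39 ± 0.27, adjusted p = 0.018). Neither gene followed the long course of treatment. FST had 7.39 and 10.7 CPM at 0 h and 1.56 and 3.33 CPM at 96 h, so that the 24 h libraries lay above all 10 others. EREG had 66.0 and 94.7 CPM at 0 h, and its 24 h libraries lay above those of 12 h, 48 h and 96 h and below those of 0 h. The related ligand AREG, at 13.5 and 13.7 CPM at 24 h against 13.0 and 8.14 CPM at 12 h, did not pass (0.36 ± 0.31).

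Transcriptional, contractile and signalling genes also rose with the block. ID2, an inhibitor of basic helix-loop-helix factors, had 65.1 and 82.3 CPM at 24 h against 32.4 and 50.7 CPM at 12 h (0.82 ± 0.20, adjusted p = 0.018). TPM1, which encodes an actin-binding tropomyosin, had 523 and 791 CPM at 24 h against 332 and 454 CPM at 12 h (0.74 ± 0.27, adjusted p = 0.018). KCNMA1, the pore subunit of a calcium-activated potassium channel, had 50.7 and 62.3 CPM at 24 h against 30.1 and 32.6 CPM at 12 h (0.84 ± 0.18, adjusted p = 0.023). All these groups were apart, although replicate 2 of 12 h came close to replicate 1 of 24 h for ID2 and TPM1. RGS2, a regulator that speeds GTP hydrolysis by Gα subunits, had 109 and 100.4 CPM at 24 h against 66.2 and 49.1 CPM at 12 h (0.86 ± 0.19). NPTX1, neuronal pentraxin, had 23.6 and 31.5 CPM at 24 h against 5.60 and 15.8 CPM at 12 h (1.35 ± 0.39), and it reached 291 and 318 CPM at 96 h. Its 12 h libraries differed from each other by more than those of 24 h did, and over 14 other ways of processing its change ranged from 0.19 to 2.26.

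A pair of genes with redox roles also rose with the block. SELENOW, which encodes a small selenoprotein with a redox motif, had 213 and 174 CPM at 24 h against 122 and 105 CPM at 12 h (0.78 ± 0.16, adjusted p = 0.018). TP53I3, a quinone oxidoreductase induced by p53, had 80.7 and 113 CPM at 24 h against 39.2 and 52.0 CPM at 12 h (1.08 ± 0.27, adjusted p = 0.023). The SELENOW libraries of 24 h lay above all 10 other libraries, whose highest value was 136 CPM. SLFN5 and ZMYND19 also rose, by 1.78 ± 0.37 and 1.41 ± 0.38 on the log2 scale, at levels of at most 23.0 CPM in any of the 4 libraries.

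**Figure D2:**
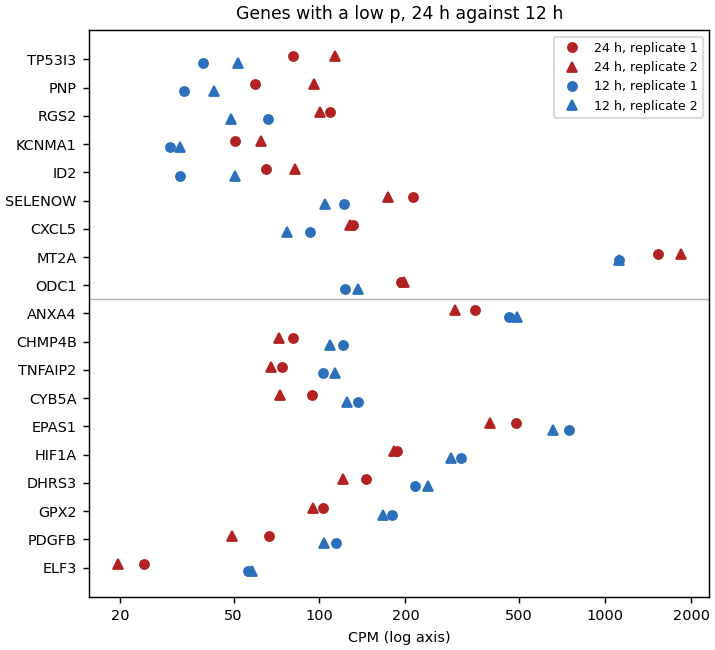
Level in CPM (log axis) in each of the 4 libraries of 9 genes higher (upper block) and 10 genes lower (lower block) at 24 h with a low p, among genes of 50 CPM or more whose libraries do not overlap. Red marks are 24 h and blue marks 12 h, circles are replicate 1 and triangles replicate 2. Red and blue are apart for every gene shown, and among the lower genes the gap is widest for ELF3 (24.3 and 19.6 CPM at 24 h, 56.0 and 58.1 CPM at 12 h).

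Other abundant genes had libraries that did not overlap but did not pass in either fit. Those named here were PNP (1.01 ± 0.26), CXCL5 (0.61 ± 0.18), MT2A (0.59 ± 0.17) and ODC1 (0.59 ± 0.16), which lay above in both 24 h libraries, and TNFAIP2 (−0.61 ± 0.15), CYB5A (−0.63 ± 0.17), CHMP4B (−0.58 ± 0.15) and ANXA4 (−0.56 ± 0.15), which lay below. MT2A, a metallothionein that binds zinc and copper, had 1532 and 1849 CPM at 24 h against 1122 and 1121 CPM at 12 h. Of these 8 genes, ODC1, MT2A, CXCL5 and the 4 lower ones were equivalent within 2-fold and PNP was not.

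A panel of 32 genes was examined one by one, mostly genes of EMT and TGFβ signalling, with some of the cell cycle, sterol synthesis and the NRF2 response. Of the 31 tested, 25 (80.6%) were equivalent within 2-fold, a share near that of all tested genes (75.6%). The share was 97.3% among genes at 50 CPM or more. TGFBI, a secreted matrix protein, had 2838 and 2699 CPM at 24 h against 2112 and 2195 CPM at 12 h (0.36 ± 0.15), and PMEPA1, a membrane inhibitor of TGFβ signalling, had 1045 and 893 CPM at 24 h against 1192 and 1092 CPM at 12 h (−0.24 ± 0.16). Both were equivalent within 2-fold under each of the 13 settings in which this was tested. COL1A1, the α1 chain of type I collagen, had 132 and 83.7 CPM at 24 h against 101 and 93.8 CPM at 12 h, with overlapping libraries (0.16 ± 0.29, 95% interval −0.48 to 0.81). COL1A1 was no longer equivalent when replicate 2 of 24 h or replicate 1 of 12 h was left out. The equivalence of FN1, SMAD7 and KRT18 was lost without replicate 1 of 24 h or replicate 2 of 12 h. SMAD7, the inhibitory SMAD, had 25.2 and 38.2 CPM at 24 h against 20.9 and 32.8 CPM at 12 h, so its replicates differed by more than its times.

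Mesenchymal genes lay slightly higher at 24 h. VIM, vimentin, had 2313 and 2779 CPM at 24 h against 1669 and 2160 CPM at 12 h (0.41 ± 0.17), and was equivalent within 2-fold, except when replicate 2 of 12 h was left out. CDH2, N-cadherin, had 31.9 and 28.9 CPM at 24 h against 30.6 and 34.2 CPM at 12 h (−0.08 ± 0.22) with overlapping libraries, and FN1, fibronectin, had 290 and 241 CPM at 24 h against 389 and 330 CPM at 12 h (−0.44 ± 0.18). Of 15 tested mesenchymal markers, 8 lay above and 2 below in both 24 h libraries (53.3% and 13.3%, against 18% each way of all genes), and the median was 0.17. The members of the list went different ways, since VIM and TPM1 were above 0 and FN1 and CDH2 below.

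For 6 panel genes equivalence could not be shown without the block. CDH1, which encodes the adherens junction protein E-cadherin, had 5.96 and 1.48 CPM at 24 h against 8.66 and 7.36 CPM at 12 h, or 26 and 4 UMIs against 34 and 28 UMIs (−0.95 ± 0.45, interval −1.90 to −0.01). SNAI1, a zinc finger repressor of CDH1, had 21.6 and 30.4 CPM at 24 h against 11.7 and 19.2 CPM at 12 h (0.73 ± 0.29, interval 0.12 to 1.34). CDKN1A, the CDK inhibitor p21, had 211 and 112 CPM at 24 h against 301 and 207 CPM at 12 h, with overlapping libraries (−0.64 ± 0.27). CDKN1A was equivalent with the replicate block (adjusted p = 0.034 in edgeR's quasi-likelihood test) and in 6 of 13 settings in all. None of the 6 passed the test for a difference either. EPCAM (−0.80 ± 0.44), GDF15 (−0.64 ± 0.42) and SNAI2 (0.15 ± 0.53) had at most 24.4 CPM in any of the 4 libraries, where intervals were wide.

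**Figure D3:**
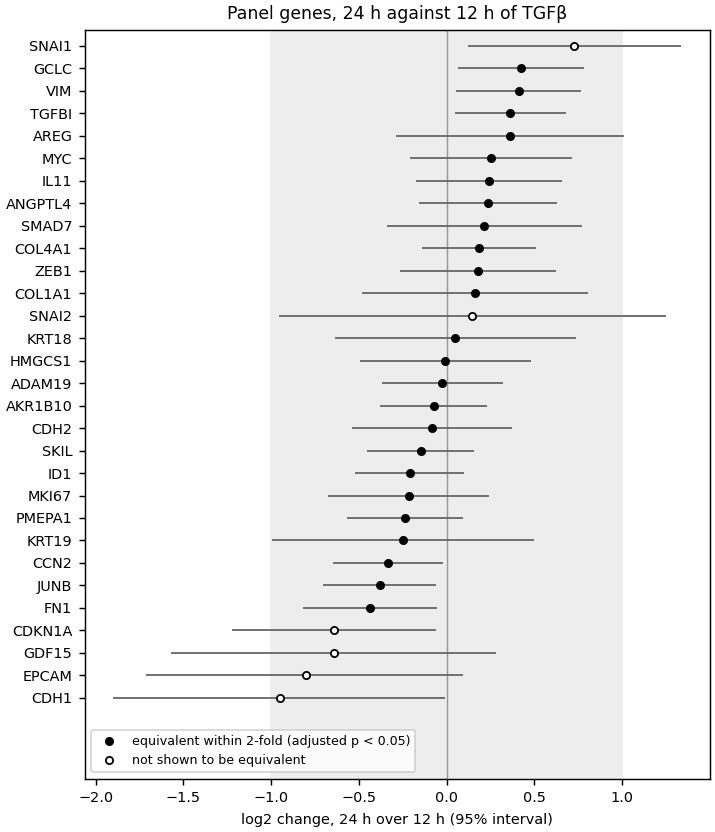
Log2 change of 24 h over 12 h (horizontal axis) of 30 of the 31 tested panel genes with 95% intervals, shaded between 2-fold down and 2-fold up. Filled points mark the 24 genes shown that were equivalent within 2-fold, open points the 6 for which this was not shown, among them SNAI1 at 0.73 and CDH1 at −0.95.

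Of 23 tested SMAD target genes, 5 (21.7%) lay above and 8 (34.8%) below in both 24 h libraries (18% of all genes each way), and the median was −0.03. Equivalence within 2-fold was shown for 20 (87.0%), against 75.6% of all genes and 97.3% of those at 50 CPM or more. The least alike were PDGFB and SPHK1, a sphingosine kinase (9.18 and 7.04 CPM at 24 h against 3.31 and 3.15 CPM at 12 h, 1.34 ± 0.45). SKI, a repressor of SMAD-driven transcription, had 33.9 and 21.9 CPM at 24 h against 48.7 and 36.0 CPM at 12 h (−0.57 ± 0.21). Among 15 tested receptors and SMADs the median was −0.13, with 2 (13.3%) above and 6 (40%) below in both 24 h libraries (18% of all genes each way). TGFBR1, the type I receptor, had 200.2 and 184 CPM at 24 h against 174 and 165 CPM at 12 h (0.18 ± 0.15), and SMAD3 had 138 and 115 CPM at 24 h against 151 and 149 CPM at 12 h (−0.24 ± 0.15). Both were equivalent within 2-fold. The 10 tested collagens had a median of 0.09 that changed sign when replicate 1 or 2 of 24 h or replicate 2 of 12 h was left out.

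Ribosomal protein genes were the largest group that leaned higher. They encode the protein part of the ribosome, and many of their mRNAs start with a C followed by a run of pyrimidines, the signal by which mTOR controls their translation. All 79 were tested and none was called. Their median log2 change was 0.28 against 0.00 for all tested genes, and 75 (94.9%) were above 0 (49.9% of all tested genes were). In both 24 h libraries 36 (45.6%) lay above and 0 below (18% of all genes each way). Their summed level was 111977 and 127406 CPM at 24 h against 99107 and 105563 CPM at 12 h, so that both 24 h sums exceeded both 12 h sums with TMM scaling. At 0 h the summed level was 122292 and 117106 CPM, also above both 12 h sums. The windows around the annotated starts of the 3 members with the lowest p are shown so that their common kind of start can be read. Each runs from 10 bases before to 20 bases from the start (RefSeq, GRCh38.p14), with the pyrimidine run at the start in capitals. RPL21 lies on chr13:27251548-27251577 (plus strand), RPL35A on chr3:197950180-197950209 (plus strand) and RPL35 on chr9:124861938-124861967 (minus strand).
RPL21: ccgcctctttCCTTTCggccggaaccgcca
RPL35A: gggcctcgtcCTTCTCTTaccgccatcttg
RPL35: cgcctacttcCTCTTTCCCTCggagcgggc

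RPL21 had 1021 and 1403 CPM at 24 h against 832 and 835 CPM at 12 h (0.54 ± 0.17). RPL35A had 635 and 940 CPM at 24 h against 494 and 605 CPM at 12 h (0.52 ± 0.17), and RPL35 had 679 and 743 CPM at 24 h against 531 and 496 CPM at 12 h (0.47 ± 0.17). None passed, and the libraries of the times did not overlap for these 3. RPS16, the most abundant member, had 5325 and 5066 CPM at 24 h against 4689 and 4860 CPM at 12 h (0.12 ± 0.15). Equivalence within 2-fold was shown for 66 of the 79 (83.5%), against 75.6% of all genes and 97.3% of those at 50 CPM or more. Ribosomal protein genes have many near-identical processed pseudogenes, so reads may have been split between copies and single members are uncertain.

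The ribosomal shift stood beside a replicate difference of its own. The list's median was 0.22 in barcode set 2 and 0.32 in barcode set 1, while replicate 1 minus replicate 2 had a median of −0.25 at 24 h and −0.13 at 12 h. The library highest in ribosomal protein genes, replicate 2 of 24 h, was also the shallowest of the 4. Thinning all 4 sums to the same number of UMIs gave a median of 0.29, and leaving out 1 library in turn gave 0.14 (without replicate 2 of 24 h) to 0.40 (without replicate 1 of 24 h). Whether depth or barcode set had a part in the shift was not tested further. A start of C followed by at least 4 pyrimidines was found in 43 of 63 matched ribosomal protein genes (68.3%) and in 478 of the 8516 tested genes with a RefSeq start (5.61%). In all 27305 start windows of the table the share was 4.04%. The 43 ribosomal genes with such a start had a median of 0.33 and the 20 without it 0.25. The 435 other genes with this start had a median of 0.03, against −0.00 for those without it. Starts were read at a single annotated position per gene, so mRNAs of a gene counted as without this start may still begin with one. In RPS28, counted as without it, a run of pyrimidines begins just after the annotated start.

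Proteasome subunits formed the second such group. Of 33 tested genes, 17 (51.5%) lay above and 0 below in both 24 h libraries (18% of all genes each way), and the median was 0.22 (0.20 in barcode set 2 and 0.23 in barcode set 1). None was called, and 10 had an unadjusted p under 0.05, all higher (2.62% of all genes). Of the 33, 29 (87.9%) were equivalent within 2-fold (75.6% of all genes, 97.3% of those at 50 CPM or more). Their summed level was 8168 and 8474 CPM at 24 h against 7538 and 7517 CPM at 12 h. At 0 h it was 8760 and 8247 CPM, also above both 12 h sums. PSMD2, a scaffold subunit of the regulatory particle, had 178 and 216 CPM at 24 h against 125 and 154 CPM at 12 h (0.50 ± 0.17), and PSMD14, the deubiquitinase of that particle, had 279.6 and 279.4 CPM at 24 h against 224 and 199 CPM at 12 h (0.40 ± 0.15). PSME1, a subunit of the 11S activator, had 27.5 and 31.9 CPM at 24 h against 19.4 and 17.1 CPM at 12 h (0.69 ± 0.23). PSMA7, a core subunit and the most abundant member, was level, at 889 and 811 CPM at 24 h against 849 and 825 CPM at 12 h (0.02 ± 0.14). Left-out libraries moved the list's median between 0.12 and 0.31, and replicate 1 minus replicate 2 had a median of −0.21 at 24 h and −0.05 at 12 h.

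Chaperone, respiratory and replication genes leaned the same way by less. Of 15 tested heat shock genes, 6 (40%) lay above and 1 (6.67%) below in both 24 h libraries, against 18% of all genes each way, and the median was 0.17. Replicate 1 minus replicate 2 had a median of −0.17 at 24 h and −0.10 at 12 h in these genes. HSPA8, the constitutive HSP70, had 598 and 989 CPM at 24 h against 340 and 510 CPM at 12 h (0.90 ± 0.36), whereas HSPB1 had 3876 and 2558 CPM at 24 h against 4395 and 3364 CPM at 12 h (−0.27 ± 0.20). Nuclear-encoded respiratory chain genes had 21 of 68 (30.9%) above and 0 below (median 0.11), while the 13 mitochondrially encoded genes had 1 (7.69%) above and 0 below (median 0.03). Of 33 genes of the G1/S transition and DNA replication, 13 (39.4%) lay above and 0 below, with a median of 0.13. PCNA, the sliding clamp of DNA polymerases, had 371 and 478 CPM at 24 h against 343 and 341 CPM at 12 h (0.31 ± 0.17), and UHRF1, which links DNA methylation to replication, had 28.9 and 47.1 CPM at 24 h against 22.2 and 27.9 CPM at 12 h (0.58 ± 0.24). The G1/S median was 0.06 in barcode set 2 and 0.19 in barcode set 1.

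**Figure D4:**
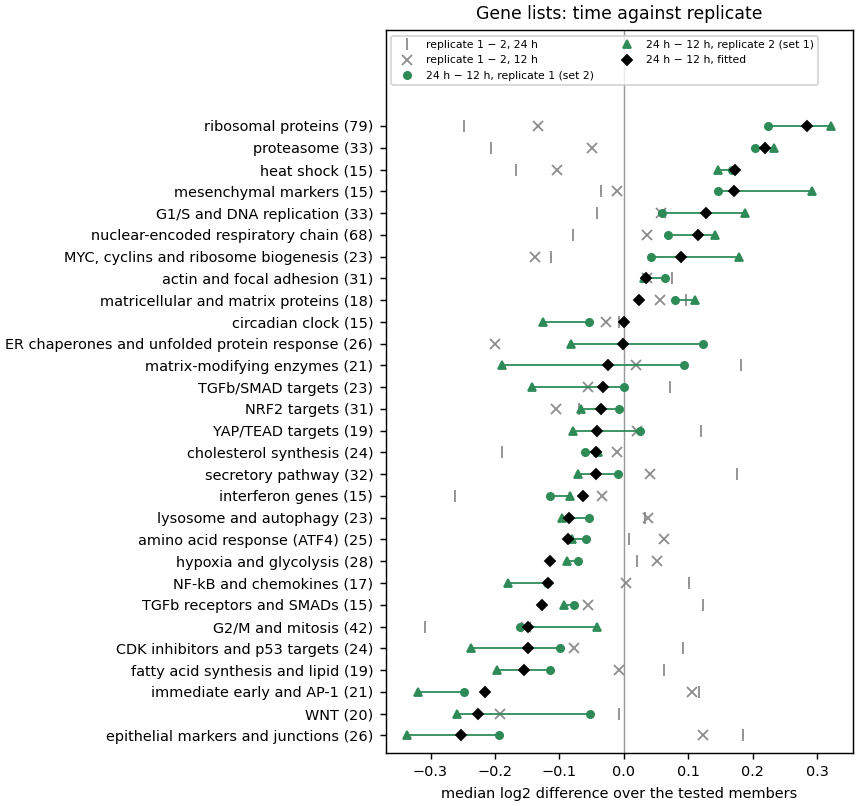
Median log2 difference over the tested members of each list with at least 15 of them (number in brackets). Black diamonds are the fitted change of 24 h over 12 h, green marks the same within each barcode set, and grey marks the difference of replicate 1 and replicate 2 within a time. Ribosomal proteins (0.28) and proteasome (0.22) lie farthest to the right and epithelial genes (−0.25) farthest to the left, with replicate differences of opposite sign in each case.

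Epithelial and junction genes had the lowest median of the lists with at least 15 tested genes. Of 26 tested, 13 (50%) lay below and 0 above in both 24 h libraries (18% of all genes each way), and the median was −0.25 (−0.19 in barcode set 2 and −0.34 in barcode set 1). Their summed level overlapped, at 13406 and 11459 CPM at 24 h against 13295 and 11928 CPM at 12 h, as did the median share per cell, at 1.29% and 1.08% at 24 h against 1.30% and 1.20% at 12 h. At 0 h the summed level was lower than at either time, at 7430 and 8358 CPM. KRT80 alone passed with the block. JUP, which encodes plakoglobin of adherens junctions and desmosomes, had 321 and 234 CPM at 24 h against 405 and 378 CPM at 12 h (−0.49 ± 0.21), and CLDN3, a tight junction claudin, had 2.06 and 0.741 CPM at 24 h against 4.33 and 3.15 CPM at 12 h (−1.27 ± 0.56). At 0 h JUP had 146 and 152 CPM and CLDN3 had 3.56 and 2.61 CPM. The most abundant keratins were equivalent within 2-fold, with KRT7 at 5734 and 4447 CPM at 24 h against 5622 and 4816 CPM at 12 h (−0.04 ± 0.17) and KRT81 at 0.19 ± 0.19. The list's median ran from −0.33 to −0.23 over 14 other settings. Replicate 1 minus replicate 2 had a median of 0.19 at 24 h and 0.12 at 12 h.

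Immediate early genes, which answer growth factors and stress within minutes in many cells, also lay lower. Of 21 tested, 12 (57.1%) lay below and 0 above in both 24 h libraries (18% of all genes each way), and the median was −0.22 (−0.25 in barcode set 2 and −0.32 in barcode set 1). EGR1, a zinc finger transcription factor, had 119 and 86.0 CPM at 24 h against 188 and 147 CPM at 12 h (−0.70 ± 0.25), and ATF3, a stress-induced bZIP factor, had 8.95 and 9.26 CPM at 24 h against 19.6 and 13.9 CPM at 12 h (−0.88 ± 0.27). JUNB, a subunit of AP-1 and a SMAD target, had 517 and 408 CPM at 24 h against 624 and 582 CPM at 12 h (−0.38 ± 0.16), and DUSP1, a MAP kinase phosphatase, had 528 and 425 CPM at 24 h against 651 and 575 CPM at 12 h (−0.36 ± 0.18). None passed in either fit. Of the 21, 18 (85.7%) were equivalent within 2-fold (75.6% of all genes, 97.3% of those at 50 CPM or more). The median was −0.07 under stricter limits on cells and −0.26 to −0.18 with 1 library left out.

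Genes of lipid synthesis, G2/M and p53 also had medians below 0. Of 19 genes of fatty acid synthesis and lipid storage, 8 (42.1%) lay below and 1 (5.26%) above in both 24 h libraries, against 18% of all genes each way (median −0.16). SREBF1, the transcription factor of lipid synthesis, had 19.96 and 20.8 CPM at 24 h against 33.4 and 39.1 CPM at 12 h (−0.83 ± 0.21, adjusted p = 0.29 in edgeR's quasi-likelihood test and 0.073 with the block), and SCD, stearoyl-CoA desaturase, had 734 and 634 CPM at 24 h against 988 and 927 CPM at 12 h (−0.49 ± 0.16). The 24 tested genes of cholesterol synthesis had a median of −0.04. Of 24 CDK inhibitors and p53 targets, 11 (45.8%) lay below and 1 (4.17%) above (median −0.15). The one above was TP53I3, while FAS (−0.99 ± 0.40) and CCNG1 (−0.42 ± 0.18) lay below. Of 42 genes of G2/M and mitosis, 13 (31.0%) lay below and 2 (4.76%) above (median −0.15), 40 were equivalent within 2-fold, and the median was −0.05 without replicate 1 of 24 h. The G2/M median was −0.16 in barcode set 2 and −0.04 in barcode set 1. For the same genes, replicate 1 minus replicate 2 had a median of −0.31 at 24 h and −0.15 at 12 h. TOP2A, a topoisomerase of dividing cells, had 356 and 461 CPM at 24 h against 400 and 457 CPM at 12 h (−0.07 ± 0.23), and CDC25C, a phosphatase that starts mitosis, had 7.11 and 7.41 CPM at 24 h against 11.5 and 14.2 CPM at 12 h (−0.82 ± 0.31).

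WNT genes had one of the lowest medians, while the lists described with them had medians near 0. Of the 31 tested NRF2 targets, highly expressed in A549 cells, 6 (19.4%) lay above and 6 (19.4%) below in both 24 h libraries (18% of all genes each way). Their median was −0.04, with AKR1B10 at 2260 and 2372 CPM at 24 h against 2319 and 2556 CPM at 12 h (−0.07 ± 0.15). The 26 genes of the unfolded protein response had 2 (7.69%) above and 3 (11.5%) below, and 25 (96.2%) were equivalent. Genes of actin and focal adhesion (31 tested, median 0.03) had 8 (25.8%) above and 3 (9.68%) below, with ACTB at 5788 and 6217 CPM at 24 h against 5104 and 4435 CPM at 12 h (0.33 ± 0.15). The 20 tested WNT genes had a median of −0.23 (−0.05 in barcode set 2 and −0.26 in barcode set 1) with 8 (40%) below and 3 (15%) above, against 18% of all genes each way, although their most abundant members DKK1 (0.43 ± 0.17) and LGR4 (0.30 ± 0.16) lay above. YAP and TEAD targets (19 tested) had a median of −0.04, and CCN2, a matricellular growth factor among them, had 310 and 233 CPM at 24 h against 328 and 357 CPM at 12 h (−0.33 ± 0.15).

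The libraries of 0 h and 96 h gave a way to ask whether the small differences ran along the course of the treatment. These libraries also enter the comparison of 24 h against 12 h, through the filter on genes, the TMM scaling and the shared estimate of spread. At 96 h against 0 h edgeR called 2477 genes, 1311 higher and 1166 lower. The 251 genes lower at 96 h by over 4-fold had a median of −0.26 at 24 h against 12 h (−0.20 in barcode set 2 and −0.28 in barcode set 1), and 97 (38.6%) lay below and 19 (7.57%) above in both 24 h libraries, against 18% each way of all genes. The 576 genes lower by over 2-fold had a median of −0.15. The 376 genes higher at 96 h by over 4-fold had a median of −0.00, with 79 genes above and 68 below in both 24 h libraries. Of these 376, 27 were higher and 11 lower at an unadjusted p under 0.05 (2.62% and 2.85% of all genes), and they summed to 25366 and 24498 CPM at 24 h against 23285 and 22571 CPM at 12 h. The fold limits were chosen after the data were seen. Among all genes called at 96 h, 980 of the 1311 higher and 967 of the 1166 lower were equivalent within 2-fold between 24 h and 12 h.

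Each library was also placed on a line on which the mean of 0 h is 0 and the mean of 96 h is 1, using the 2477 genes. In order of time the mean position was 0.06 at 0.5 h, then 0.48 ± 0.01 at 12 h, then 0.52 ± 0.01 at 24 h, and it was 0.77 ± 0.02 at 48 h (SD, n = 2 each). The 24 h libraries stood at 0.514 and 0.527 against 0.476 and 0.485 at 12 h, so both 24 h libraries were farther along. For genes that were lower at 96 h the positions were 0.423 and 0.446 at 24 h against 0.360 and 0.371 at 12 h, and for genes that were higher 0.582 and 0.588 at 24 h against 0.563 and 0.569 at 12 h. With 2 libraries a side an exact permutation test cannot go below p = 0.333, so no test was made. With sums thinned to the smallest library the means were 0.529 at 24 h and 0.498 at 12 h.

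**Figure D5:**
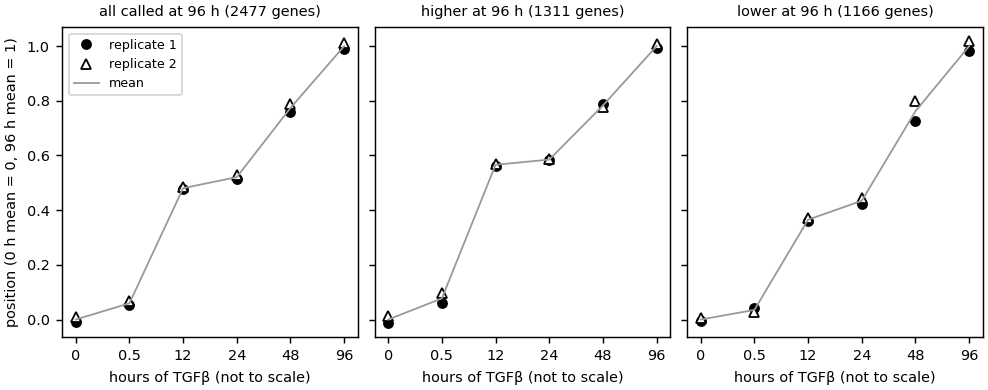
Position of each library between the 0 h mean (0) and the 96 h mean (1), vertical axis, by hours of TGFβ (times evenly spaced, not to scale), for all genes called at 96 h and for those higher or lower there. Filled circles are replicate 1, open triangles replicate 2 and the line joins means. The means are 0.48 at 12 h and 0.52 at 24 h, then 0.77 at 48 h.

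In single cells the share of UMIs from each list overlapped widely between times. The share of a cell's protein-coding UMIs from ribosomal protein genes had a median of 10.8% and 12.5% in the 24 h libraries against 9.82% and 10.96% in the 12 h libraries. Replicate 1 of 24 h was thus below replicate 2 of 12 h in these shares, which carry no TMM scaling, whereas the TMM-scaled sums did not overlap. The median share from immediate early genes was 0.318% and 0.288% at 24 h against 0.365% and 0.365% at 12 h, below in both 24 h libraries. The 90th percentile of the 24 h cells, at 0.407% and 0.383%, was above both 12 h medians. For genes of G2/M the medians overlapped, at 0.254% and 0.284% at 24 h against 0.257% and 0.264% at 12 h, while the 90th percentile was 0.842% and 0.892% at 24 h against 0.958% and 1.03% at 12 h. Shares from SMAD targets had medians of 1.18% and 1.11% at 24 h against 1.12% and 1.13% at 12 h, which overlapped. These shares were taken at each cell's own depth.

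Nearest neighbors told the times apart unevenly. For each cell the 20 nearest cells were taken among those of the other replicate number, with 188 cells per library, so that chance gives 50% of the own time. The share of neighbors of the own time was 47.8% and 86.2% for the 24 h libraries and 83.5% and 45.7% for the 12 h libraries, a mean of 65.8% ± 22.0 (SD, n = 4 libraries). Replicate 1 of 24 h and replicate 2 of 12 h were at or under chance. The same mean was 89.7% ± 13.3 between 48 h and 24 h and 99.0% ± 0.978 between 12 h and 0 h (SD, n = 4 libraries each). With every cell thinned to the same number of UMIs, which left 118 cells per library, it was 63.1% between 24 h and 12 h.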

How the data were processed

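The deposited table gives a raw UMI count for each of 29035 genes in each of 4608 wells, with no value above 2845. According to the processing notes in the labels, reads were trimmed (Trim Galore 0.6.7), aligned to GRCh38 (HISAT2 2.2.1), assigned to genes (featureCounts 2.0.1) and collapsed by UMI (UMI-tools). For trimming and assignment the study's methods give different releases. Annotation release and strand setting: not given in the sources used here. Antisense and overlapping genes are therefore uncertain. Wells were kept by the study's limits, which left 1871 cells here, fewer than the study states, and no doublet caller was run. Protein-coding counts of each library were added up and fitted with edgeR 4.0.16 under R 4.3.3 (TMM, filterByExpr, robust quasi-likelihood F test, 12 libraries, 6 residual degrees of freedom), with Benjamini-Hochberg adjustment over 10465 genes. Equivalence used offsets shifted by 1 on the log2 scale, and genes with fewer than 10 counts at 12 h and 24 h could not pass. DESeq2 1.42.0 was an alternative. Changes are log2 with SE, and levels are CPM with TMM scaling. Ratios within barcode sets used a prior count of 2. Scripts were tested on simulated data.

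Members and gene lists were chosen with earlier results of these data known, so lists are described by counts and medians with no test. Named genes are a panel of 32 (TXNIP was not tested), the 10 higher and 10 lower genes with the lowest p among those of at least 50 CPM whose libraries did not overlap, up to 3 members of each list with the lowest p, its 2 most abundant members, and genes called with the block. Start windows came from RefSeq. Some genes that these rules name are not reported here.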

Additional observations from a re-analysis of the deposited data

How the results depend on the processing

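The count of 0 genes called between 24 h and 12 h depended on the model. It was 21 with the replicate block over 12 libraries, 459 with the block over only the 4 libraries (1 residual degree of freedom), 166 with the block over the 8 libraries of 0 h to 48 h without 0.5 h (chosen after seeing the data), 1 with only the 4 libraries and no block (ELF3), 31 with no filter on low counts (15452 genes tested), 1 with at least 3000 genes and at most 20% mitochondrial counts per cell (DKK1) and 2 in DESeq2 (ELF3 among them). It stayed at 0 with RLE size factors, all gene types or thinned sums. Leaving out 1 library gave 0 to 3 genes, FST and ZNF430 without replicate 1 of 24 h, 1 gene without replicate 1 of 12 h and ANKRD1, EIF3C and NPTX1 without replicate 2 of 12 h. Equivalence within 2-fold held for 5710 to 7153 genes with 1 library left out, for 975 under the stricter limits, which leave 8 to 20 cells per library and 4871 genes tested, and for 2433 at a margin of 1.5-fold. ANKRD1 reversed, to 0.44, under the stricter limits. The cause of these differences was not tested beyond what their construction shows. In the fit without the block the replicate numbers were not taken to pair the libraries. No label ties them to a shared culture, and the correlation of deviations between libraries of one number was 0.140 to 0.275 among 0 h, 12 h, 24 h and 48 h (0.268 for 24 h and 12 h), 0.0678 to 0.0870 with 96 h and −0.0926 to −0.0171 with 0.5 h, so not every pair was over 0.1. Over the 3064 abundant genes, however, the ratios of replicate 1 to replicate 2 at 24 h and at 12 h had an r of 0.66. The fit without the block leaves this shared difference in its spread. Among named genes, lists and panel genes, 1143 of the other values counted as unchanged, 116 passed where they had not, 33 no longer passed and 138 moved by more than their spread. For a list median, unchanged meant a shift smaller than the spread between barcode sets, whatever its sign. Some list medians near 0 changed sign, among them that of SMAD targets, which ran from −0.18 to 0.04. Genes with fewer than 10 counts over the 4 libraries could not be called equivalent.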

Other observations

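Genes outside the protein-coding set were fitted together with it, and 1263 of them were tested. None was called by edgeR's quasi-likelihood test (lowest adjusted p over all gene types 0.220), 64 had an unadjusted p under 0.05, and 307 were equivalent within 2-fold. Long noncoding RNAs (712 tested) were level, with a median log2 change of 0.02, 17.7% above and 16.0% below in both 24 h libraries. MALAT1, a nuclear noncoding RNA, had 1187 and 2178 CPM at 24 h against 1196 and 2208 CPM at 12 h (−0.02 ± 0.44), so its replicates were farther apart than its times. LINC01588 had 14.4 and 14.9 CPM at 24 h against 5.80 and 7.61 CPM at 12 h (1.12 ± 0.29), and its adjusted p was 0.49.

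Pseudogenes stood apart from both. Of 500 tested, 159 (31.8%) lay above and 21 (4.20%) below in both 24 h libraries, and the median was 0.42. Of all tested genes outside the protein-coding set, 23.0% lay above and 11.1% below. The 136 named for a ribosomal protein had a median of 0.54, with 43 above and 1 below, and summed to 3493 and 5169 CPM at 24 h against 3019 and 3632 CPM at 12 h, so that replicate 1 of 24 h was below replicate 2 of 12 h. The 364 others had a median of 0.41. On log2(CPM + 1), the median change of all 500 was 0.25 in barcode set 2 and 0.45 in barcode set 1, while replicate 1 minus replicate 2 had a median of −0.44 at 24 h and −0.30 at 12 h. Pseudogene counts may include reads of their parent genes, and how reads were assigned was not tested.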
